A study of Mus musculus with 4 samples.

Results

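The genes described here are 8 that mark Cajal-Retzius cells and other early neurons of the preplate, and they were chosen by name: Reln, Trp73, Lhx1, Lhx5, Calb2, Ebf2, Ebf3 and Nhlh2. All 8 have a read count in both deposited tables, among 19150 genes that do, and all 8 held enough reads to be among the 15708 genes tested. The counts come from RNA sequencing of brain RNA of C57BL/6 mouse embryos at E13.5, with 2 knockout (KO) brains, KO2 and KO4, and 2 wild-type (WT) brains, WT6 and WT8. The knockout is of macroH2A, a histone H2A variant with a large extra domain, and the labels do not say which macroH2A gene was deleted, by what allele or whether embryos shared a litter. P-values therefore measure the spread between these 4 libraries. The 2 libraries of each genotype came from embryos of different sex, as given below, so this spread includes sex along with any technical differences.

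Cajal-Retzius cells are among the first neurons of the cerebral cortex. They arise mainly at the edges of the pallium, in the cortical hem, the septum and the pallial-subpallial boundary, spread beneath the pial surface and secrete Reelin, the glycoprotein that guides the layering of later-born neurons. The preplate is the first neuronal layer and is later split into the marginal zone, where Cajal-Retzius cells stay, and the subplate. Each of these genes is also used elsewhere in the embryonic nervous system, and in RNA of a whole tissue fewer cells of a type and less RNA per cell cannot be told apart.

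The deposited counts sum to between 16470090 and 18136745 reads per library. H2afy, which encodes macroH2A1, had 1368 reads (KO2) and 1267 (KO4), against 5538 (WT6) and 5593 (WT8), and KO over WT was -2.22 on the log2 scale (SE 0.10, edgeR adjusted p = 0.00167), while that of H2afy2 was 0.08 (adjusted p = 0.799). Without WT6 its log2 fold change was -2.29, with 1 WT library left, and its adjusted p was 0.314. One table holds KO2 with WT6 and the other KO4 with WT8. The Y-linked gene Eif2s3y had 1150 reads in KO2 and 697 in WT6 and 1 read each in KO4 and WT8, so the table and the sex of the embryo divide the libraries alike and cannot be told apart. Of 13 genes listed for hindbrain and cerebellum 2 have counts in both tables, the other 11 are not analysed here, and the sum of the 2 was at most 0.764 CPM (counts scaled to a common library size with edgeR's TMM factors) in any library, so these markers were near 0 in RNA labelled brain.

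Reln, which encodes Reelin, was the most heavily read of the 8 genes. It had 2279 reads (KO2) and 2138 (KO4), against 2477 (WT6) and 1852 (WT8), or 124 and 117 CPM in KO and 144 and 116 CPM in WT. WT6 was the highest library and WT8 the lowest, so the KO libraries lay between the WT libraries. KO4 and WT8 were nearly level, however, with KO4 over WT8 at 0.009 on the log2 scale (95% interval for counting error -0.08 to 0.10). KO averaged 120.5 ± 5.41 CPM, against 130 ± 19.8 CPM for WT (SD, n = 2 libraries each). On the log2 scale KO over WT was -0.11, with a 95% interval of -0.39 to 0.17 (edgeR quasi-likelihood adjusted p = 0.801). Without WT6 it stood at 0.05. Reln lies on the minus strand of chromosome 5, from 21884454 to 22344702 on GRCm38, and its exons of the GENCODE M21 annotation cover 23738 bases. An antisense gene, Gm10475, shares 246 of these.

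The start of Reln is shown because Reelin is the protein by which Cajal-Retzius cells are usually recognised, and because its base composition is far from the median of mouse starts. The window, chr5:22344656-22344955 on the minus strand (RefSeq, GRCm38.p6), runs from 250 bases before to 50 bases after the start, and capitals mark the motifs that were found in it, CCCNNGGG, the core letters of the site bound by EBF factors, and the E-box CACGTG.
Reln: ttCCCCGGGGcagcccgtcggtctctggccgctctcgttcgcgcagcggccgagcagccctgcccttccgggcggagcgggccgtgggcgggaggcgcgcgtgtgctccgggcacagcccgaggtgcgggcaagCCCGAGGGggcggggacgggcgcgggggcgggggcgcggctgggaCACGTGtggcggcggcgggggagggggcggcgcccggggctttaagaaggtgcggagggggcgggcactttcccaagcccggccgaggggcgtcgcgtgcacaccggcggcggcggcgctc
G and C make up 80.7% of these bases, against a median of 52.7% over 32851 mouse windows of the same length. Of those windows 13.7% hold CCCNNGGG and 7.15% hold CACGTG. These shares are not matched for base composition, and the Ebf3 window, with 77.0% G and C, also holds CCCNNGGG. Both strands were also searched for TAATTA, which 5.29% of windows hold, for the E-box CAGCTG, which 16.3% hold, for the box TATAAA, which 13.6% hold, and for the box CCAAT, which 37.4% hold, and matches in the windows of these genes did not overlap. A match is a run of letters and not a measured site.

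Trp73 encodes p73, a relative of p53 that Cajal-Retzius cells need to survive. It had 314 reads (KO2) and 319 (KO4), against 393 (WT6) and 282 (WT8), or 17.1 and 17.4 CPM in KO and 22.8 and 17.7 CPM in WT. Both KO libraries were below both WT libraries, but KO4 and WT8 were nearly level, and only WT6 stood clear. KO averaged 17.3 ± 0.197 CPM, against 20.3 ± 3.67 CPM for WT (SD of 2 libraries). KO over WT was -0.23 on the log2 scale, with an interval of -0.61 to 0.15 (edgeR adjusted p = 0.743), and without WT6 it stood at -0.03. Trp73 lies on the minus strand of chromosome 4, from 154056253 to 154140208.

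Trp73 has a pair of starts, and both are shown because 1 count per gene cannot divide the reads between them. The upstream start gives full-length p73, and the internal start gives a form without the transactivation domain, the form known from mouse Cajal-Retzius cells. The upstream window is chr4:154139826-154140125 and the internal one chr4:154097124-154097423, both on the minus strand (RefSeq, GRCm38.p6), with the E-box CAGCTG in capitals.
Upstream: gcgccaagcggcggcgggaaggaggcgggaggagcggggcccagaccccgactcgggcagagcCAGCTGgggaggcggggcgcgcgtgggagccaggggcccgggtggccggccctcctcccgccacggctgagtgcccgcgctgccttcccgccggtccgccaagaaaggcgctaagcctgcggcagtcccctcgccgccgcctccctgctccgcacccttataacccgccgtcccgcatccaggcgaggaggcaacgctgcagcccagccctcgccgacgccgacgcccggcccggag
Internal: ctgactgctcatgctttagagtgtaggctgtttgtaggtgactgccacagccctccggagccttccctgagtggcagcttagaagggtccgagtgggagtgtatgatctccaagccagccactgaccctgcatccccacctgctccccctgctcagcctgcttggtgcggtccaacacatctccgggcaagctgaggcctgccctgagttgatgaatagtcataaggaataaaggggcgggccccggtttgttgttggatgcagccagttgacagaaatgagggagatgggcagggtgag
G and C make up 77.7% of the upstream window and 57.7% of the internal one, and none of the motifs searched is in the internal one. The antisense gene Trp73os, from 154093479 to 154098353 on the plus strand, covers the internal start and shares 280 bases, or 5.06%, of the Trp73 exons. Whether reads were counted by strand is not stated, so reads in such shared bases, here and in the antisense genes below, are uncertain in origin.

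Lhx1 and Lhx5 encode LIM-homeodomain factors, of which Lhx5 is used in the hem and in Cajal-Retzius cells and Lhx1 also in other early neurons. Lhx5 had 280 reads (KO2) and 237 (KO4), against 213 (WT6) and 310 (WT8), or 15.3 and 12.9 CPM in KO and 12.4 and 19.4 CPM in WT. WT8 was the highest library and WT6 the lowest, whereas Reln was highest in WT6. Its log2 fold change was -0.17 (SE 0.23, interval -0.71 to 0.37, edgeR adjusted p = 0.841), and 0.19 without WT8. Lhx5 lies on the plus strand of chromosome 5, from 120431699 to 120441223, and Lhx1 on the minus strand of chromosome 11, from 84518284 to 84525535. Lhx1 had 84 reads (KO2) and 64 (KO4), against 63 (WT6) and 80 (WT8), or 4.58 and 3.49 CPM in KO and 3.66 and 5.01 CPM in WT. KO2 and WT8 were the higher libraries of their genotypes, as for Lhx5, and the genotypes overlapped. Its log2 fold change was -0.10 (SE 0.26, interval -0.73 to 0.53, adjusted p = 0.924), and it was 0.14 without WT8 and 0.08 without KO4.

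The start of Lhx1 is shown because a noncoding gene begins within it on the other strand. The window is chr11:84525485-84525784 on the minus strand (RefSeq, GRCm38.p6), Lhx1os starts at 84525660 on the plus strand, and capitals mark a CCAAT box read on the opposite strand.
Lhx1: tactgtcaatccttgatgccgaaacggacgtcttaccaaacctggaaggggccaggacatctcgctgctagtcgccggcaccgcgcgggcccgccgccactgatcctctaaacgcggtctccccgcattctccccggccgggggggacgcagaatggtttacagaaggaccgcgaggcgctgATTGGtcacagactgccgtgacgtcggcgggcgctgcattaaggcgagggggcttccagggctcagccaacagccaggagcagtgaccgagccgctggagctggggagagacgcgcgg
Lhx1os had 56 reads (KO2) and 49 (KO4), against 45 (WT6) and 77 (WT8), so its highest library was that of Lhx1, and its lowest was WT6, where Lhx1 was at 3.66 CPM. The exons of both genes do not overlap. Lhx5 has an antisense gene at its start, Gm27199, that shares 69 of its exon bases and had 47 reads (KO2) and 42 (KO4), against 16 (WT6) and 46 (WT8). WT6 was the lowest library for Lhx5 and for Gm27199.

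Calb2 encodes calretinin, a calcium-binding protein used to stain Cajal-Retzius cells and other neurons. It had 432 reads (KO2) and 303 (KO4), against 320 (WT6) and 463 (WT8), or 23.6 and 16.5 CPM in KO and 18.6 and 29.0 CPM in WT. Each genotype held a high and a low library, KO2 and WT8 above KO4 and WT6. KO averaged 20.1 ± 4.97 CPM, against 23.8 ± 7.35 CPM for WT (SD of 2 libraries). KO over WT was -0.25 on the log2 scale, with an interval of -0.84 to 0.35 (edgeR adjusted p = 0.791), and it was 0.11 without WT8. Of the 8 genes it differed most between libraries, by 1.75-fold between WT8 and KO4. Calb2 lies on the minus strand of chromosome 8, from 110137502 to 110168210.

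Ebf2 and Ebf3 encode factors of the early B-cell factor family, which act in newly born neurons, Ebf2 and Ebf3 both marking Cajal-Retzius cells. Ebf3 had 176 reads (KO2) and 235 (KO4), against 237 (WT6) and 216 (WT8), or 9.60 and 12.8 CPM in KO and 13.8 and 13.53 CPM in WT. KO2 stood apart below the other 3 libraries, and KO4 was close to both WT libraries. Its log2 fold change was -0.28 (SE 0.18, interval -0.71 to 0.14, edgeR adjusted p = 0.743), and -0.08 without KO2. Ebf2 had 55 reads (KO2) and 73 (KO4), against 56 (WT6) and 47 (WT8), or 3.001 and 3.98 CPM in KO and 3.26 and 2.94 CPM in WT. KO4 was highest and the other 3 libraries were close together. Its log2 fold change was 0.17 (SE 0.26, interval -0.45 to 0.79, adjusted p = 0.861), and it was -0.05 without KO4. Ebf3 lies on the minus strand of chromosome 7, from 137193673 to 137314445, and Ebf2 on the plus strand of chromosome 14, from 67233292 to 67430918. Antisense genes share 355 exon bases with Ebf3 and 424 with Ebf2. No run of 50 bases in the transcripts of either gene was found in transcripts of the other or of Ebf1 or Ebf4.

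Nhlh2 encodes a basic helix-loop-helix factor of newly formed neurons. It had 555 reads (KO2) and 486 (KO4), against 575 (WT6) and 388 (WT8), or 30.3 and 26.5 CPM in KO and 33.4 and 24.3 CPM in WT. WT6 was highest, as for Reln, WT8 was lowest and both KO libraries lay between them. Its log2 fold change was -0.02 (SE 0.17, interval -0.43 to 0.38, edgeR adjusted p = 0.975). It was 0.22 without WT6, 0.07 without KO4 and 0.01 when counts were scaled by library totals alone. Nhlh2 lies on the plus strand of chromosome 3, from 102010076 to 102015492.

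**Figure D1:**
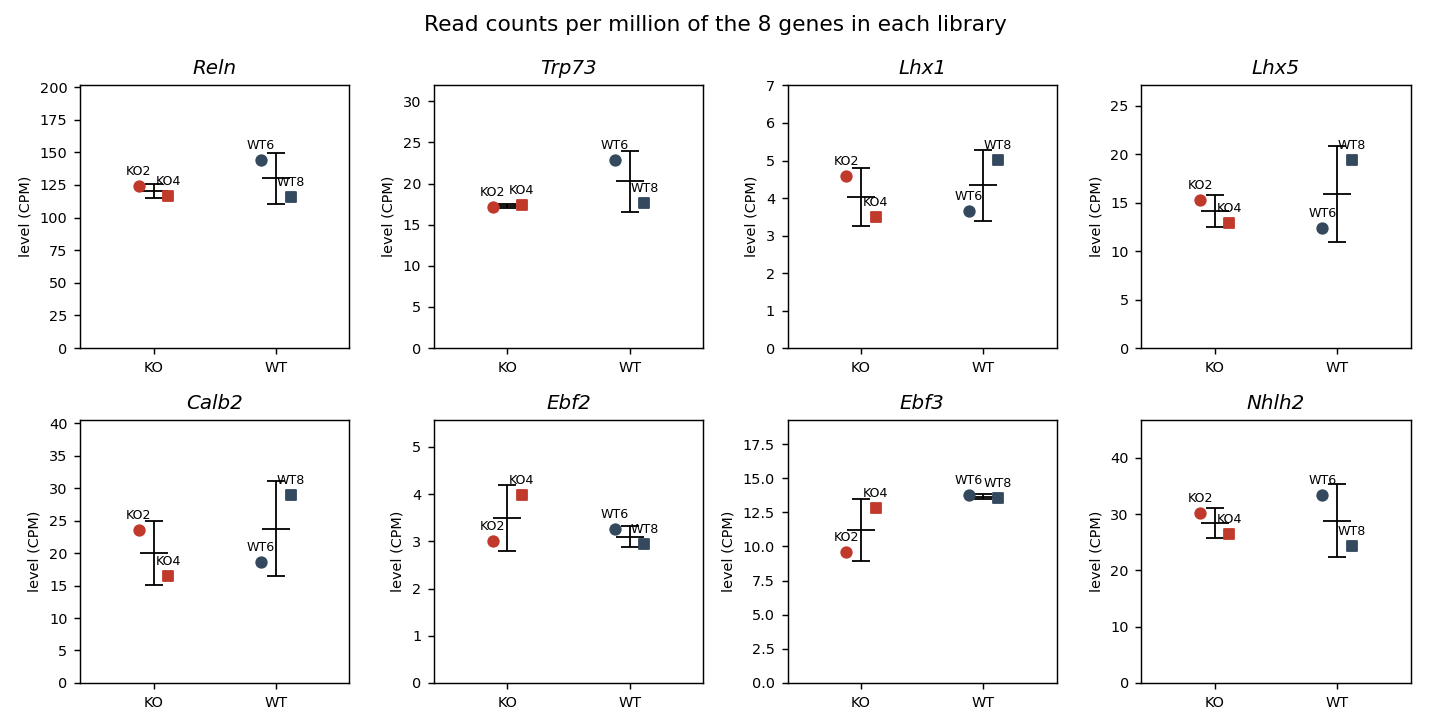
Level in CPM (vertical axes, from 0) of each of the 8 genes in the KO libraries (red, left) and the WT libraries (dark, right), with circles for the first table, squares for the second and bars for the mean ± SD of n = 2 libraries. Reln and Nhlh2 have WT6 as the highest and WT8 as the lowest library, and Lhx1, Lhx5 and Calb2 have WT8 as the highest. For Reln KO4 and WT8 are nearly level.

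None of the 8 genes was called between KO and WT. At an edgeR adjusted p under 0.05 the count was 0 of 8, against 0.00637% of all genes tested (1 gene, H2afy). An unadjusted edgeR p under 0.05 was found for 0 of 8, against 738 of the 15708 genes tested. That is also the background for the lists below. DESeq2 and limma-voom also called 0 of 8. Fold changes were below 0 for 7 genes and above 0 for Ebf2, where 48.9% of all genes tested were above 0. The median over the 8 genes was -0.14, beside -0.01 over all genes tested. That median was -0.05 without KO4 and -0.06 without WT8. The direction of 6 of these rested on single libraries, as given for each gene. For Trp73 and Ebf3 both KO libraries were below both WT libraries in TMM-scaled CPM. That is 2 of 8 genes, where 19.4% of all genes tested had that order, so the share is near the background. For Trp73 the order depends on the scaling: KO4 and WT8 were nearly level, and the authors' deposited fold of KO4 over WT8 is 0.04 on the log2 scale. The intervals do not show that the levels are equal in both genotypes: for Calb2 the interval runs from 0.558 to 1.28 times the WT level, and for Reln from 0.762 to 1.13 times.

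Single libraries of the same genotype differed for these genes by as much as single libraries of different genotypes did. The median size of the log2 difference over the 8 genes was 0.31 between KO2 and KO4 and 0.40 between WT8 and WT6. Between 1 KO and 1 WT library it was 0.31 for KO2 over WT6, 0.21 for KO2 over WT8, 0.23 for KO4 over WT6 and 0.27 for KO4 over WT8. Over all genes tested the medians were 0.12 between KO2 and KO4 and 0.19 between WT8 and WT6, and over the 10319 tested genes with a mean between 3.30 and 125 CPM, the range of the 8, they were 0.11 and 0.17. No test was made of that contrast with other genes.

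The authors' deposited tables compare 1 KO library with 1 WT library, so their p-values speak of those libraries and not of the genotypes. In the authors' deposited table of KO2 over WT6, 4 of 8 genes have an adjusted p under 0.05, where 17.3% of all its genes do. In that deposited table Reln is at -0.20 (2.86e-05), Trp73 at -0.40 (0.00196) and Ebf3 at -0.51 (0.00314) on the log2 scale, with adjusted p in brackets, and Calb2 is at 0.35 (0.0066). In the authors' deposited table of KO4 over WT8, 2 of 8 genes have an adjusted p under 0.05, where 39.0% of all its genes do, and these are Lhx5 at -0.52 (8.84e-05) and Calb2 at -0.75 (1.42e-11). Of the 8 genes 7 have fold changes of opposite signs in the 2 pairs of the authors' deposited tables, all but Ebf3. How many of all genes do so was not counted, so whether 7 of 8 is unusual was not tested. The count also depends on the scaling. With TMM factors Trp73 was below 0 in both pairs, at -0.42 in the pair of KO2 and WT6 and -0.02 in the other pair. Calb2 thus passed in both of the authors' deposited tables, higher in KO2 over WT6 and lower in KO4 over WT8.

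The 8 genes did not vary together across the libraries. Trp73 and Nhlh2 kept close to Reln: there were 13.8 Trp73 reads per 100 Reln reads for KO2 and 14.9 for KO4, against 15.9 for WT6 and 15.2 for WT8, and their 95% exact binomial intervals, which cover counting error only, overlapped. For Nhlh2 the ratios were 24.4 (KO2) and 22.7 (KO4), against 23.2 (WT6) and 20.95 (WT8). Both ratios differed by at most 1.16-fold between any libraries, less than Reln itself, which differed by 1.24-fold.

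Calb2, Lhx5, Lhx1 and Ebf3 did not keep a fixed ratio to Reln. Calb2 had 19.0 reads per 100 Reln reads for KO2 and 14.2 for KO4, against 12.9 for WT6 (interval 11.5 to 14.5) and 25.0 in WT8 (22.5 to 27.7). Lhx5 had 12.3 (KO2) and 11.1 (KO4), against 8.60 in WT6 (7.44 to 9.89) and 16.7 in WT8 (14.8 to 18.9). The intervals of WT6 and WT8 are apart for both genes, so within WT these ratios differed beyond counting error, by 1.94-fold for Calb2 and 1.95-fold for Lhx5. Lhx1 had 3.69 (KO2) and 2.99 (KO4), against 2.54 for WT6 (1.95 to 3.27) and 4.32 for WT8 (3.41 to 5.40), and its WT intervals were apart as well. Ebf3 had 7.72 for KO2 (6.59 to 9.01) and 10.99 for KO4 (9.57 to 12.6), against 9.57 (WT6) and 11.7 (WT8), so that for this gene the KO intervals were apart. Ebf2 had 2.41 (KO2) and 3.41 (KO4), against 2.26 (WT6) and 2.54 (WT8), and its intervals overlapped.

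**Figure D2:**
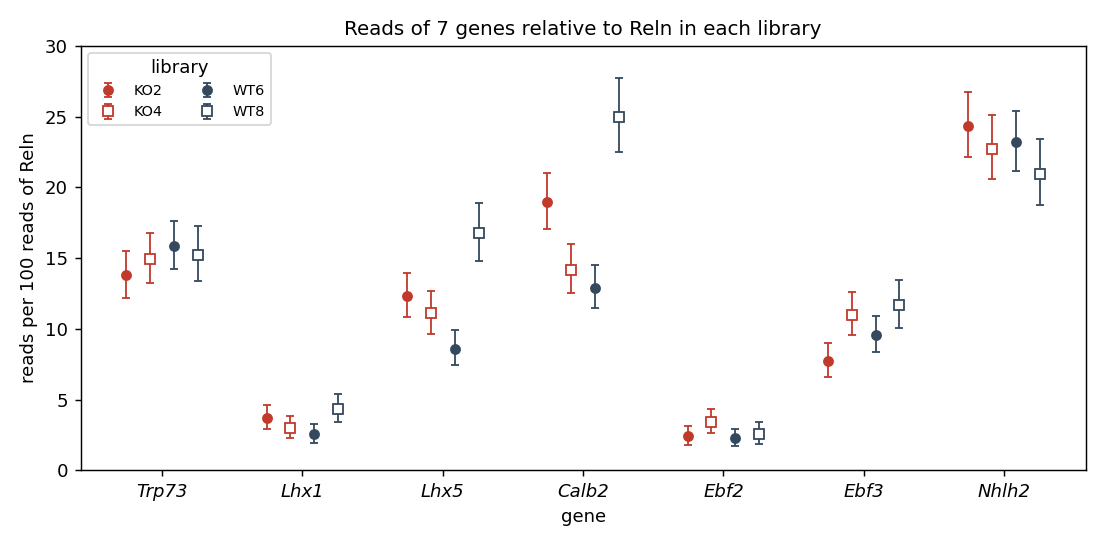
Reads of 7 genes per 100 reads of Reln (vertical axis, from 0) in KO2, KO4, WT6 and WT8, with 95% exact binomial intervals for counting error. Trp73 stays between 13.8 and 15.9 in all 4 libraries, while Calb2 spans 12.9 to 25.0 and Lhx5 spans 8.60 to 16.7.

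Levels of the 8 genes were set beside each other per length of exon. That length is of all annotated exons merged, and the transcripts present in these brains may use only part of it. A gene for which that holds is placed too low, and Reln has the longest merged exons of the 8, 23738 bases. Calb2 was highest at 12.6 CPM per kb of exon (mean of 4 libraries, range 9.49 to 16.6). Lhx5 at 5.58 CPM per kb (4.61 to 7.22), Nhlh2 at 5.29 (4.49 to 6.17) and Reln at 5.28 (4.89 to 6.07) followed, and these 3 overlapped in their ranges. Trp73 stood at 3.39 CPM per kb (3.10 to 4.13), below all of them. Ebf3 at 1.35 CPM per kb (1.04 to 1.49) and Lhx1 at 1.03 (0.858 to 1.23) overlapped, and Ebf2 was lowest at 0.476 (0.425 to 0.575). Reln thus had the most reads of the 8 genes but not the highest level per length of merged exon, an order that other transcript lengths could change.

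Of 10054 other genes with a mean of at least 10 CPM, those with the pattern over the 4 libraries nearest to that of Reln were Stk32b, Camk2b, Fgfr1, Pdgfa and Cog8. Likeness was the Euclidean distance between deviations of log2 CPM from each gene's mean, and it was 0.02, 0.02, 0.03, 0.04 and 0.04 for these genes. Camk2b, a subunit of a calcium-dependent kinase, had 147 CPM (KO2) and 140 (KO4), against 171 (WT6) and 137 (WT8). Trp73 came at rank 404 (0.15) and Nhlh2 at rank 502 (0.16), while Ebf3, Lhx5 and Calb2 came at ranks 8602, 9790 and 9854. Lhx1 and Ebf2 had means under 10 CPM and were not ranked, with distances of 0.57 and 0.45. With 4 libraries many genes can share a pattern, and the order is a description only.

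Other genes reported in Cajal-Retzius cells also varied between libraries of a genotype and none passed. Of 10 such genes 5 were above and 5 below 0, with a median log2 fold change of -0.03, and edgeR called 0 of them, with 0 at an unadjusted p under 0.05. The 3 with the smallest p were Cxcr4, a receptor for the meningeal chemokine Cxcl12, at 0.23, Nhlh1, the relative of Nhlh2, at -0.12 and Ndnf, which encodes a secreted factor of marginal zone neurons, at -0.29 (adjusted p between 0.743 and 0.761). Zic1 and Zic2, which encode zinc finger factors of the septum, hem and meninges, were singled out after their values were seen. Zic1 had 131 CPM (KO2) and 60.3 (KO4), against 53.1 (WT6) and 148 (WT8). Zic2 had 42.9 CPM (KO2) and 29.4 (KO4), against 29.7 (WT6) and 45.5 (WT8). KO2 and WT8 were the high libraries for both, as for Lhx1, Lhx5 and Calb2.

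Several genes of the forebrain midline and hypothalamus also differed between libraries of a genotype, and their part in the pattern of the 8 genes was not tested. Otx2, a factor of the choroid plexus and of midline and caudal forebrain, had 8.40 CPM (KO2) and 3.002 (KO4), against 1.57 (WT6) and 9.08 (WT8). Choroid plexus genes summed to 10.7 CPM (KO2) and 4.86 (KO4), against 6.05 (WT6) and 12.02 (WT8), with Ttr at 6 reads (KO2) and 11 (KO4), against 53 (WT6) and 4 (WT8). Otx2 is counted in these sums and made up most of them in KO2, KO4 and WT8, so they are not a separate measure. In WT6 the largest part was Ttr, at 3.08 CPM. Six6, a factor of eye and hypothalamus named after its values were seen, had 7 reads (KO2) and 0 (KO4), against 0 (WT6) and 84 (WT8). The hypothalamic and pituitary gene Pomc had 58 reads (KO2) and 53 (KO4), against 61 (WT6) and 144 (WT8), and so was high in WT8 alone. Lhx8, a LIM-homeodomain gene of the ventral telencephalon, had 34.7 CPM (KO2) and 27.2 (KO4), against 8.84 (WT6) and 41.5 (WT8), and was low in WT6 alone. Genes listed for diencephalon and midbrain, 9 of 14 with counts in both tables, summed to 31.1 CPM (KO2) and 35.6 (KO4), against 24.3 (WT6) and 38.8 (WT8).

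**Figure D3:**
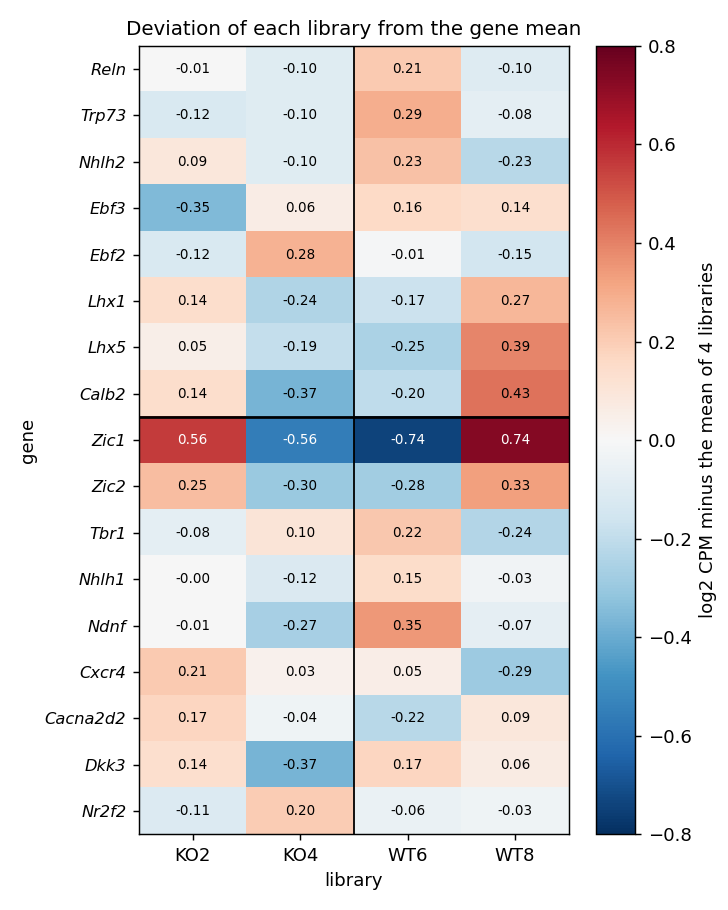
Deviation of log2 CPM in each library from the mean of the 4 libraries (colour and printed value) for the 8 genes, above the line, and for 9 other genes reported in Cajal-Retzius cells, below it, with KO libraries on the left. Lhx1, Lhx5 and Calb2 share with Zic1 and Zic2 higher values in KO2 and WT8 than in KO4 and WT6, and Reln, Trp73, Nhlh2, Tbr1 and Ndnf have their highest value in WT6.

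Genes of the regions where Cajal-Retzius cells arise were mostly low in reads. Of 13 tested genes of the cortical hem and pallial-subpallial boundary 4 were above and 9 below 0, with a median log2 fold change of -0.28, beside -0.01 over all genes, and edgeR called 0 of 13, with 0 at an unadjusted p under 0.05. That median rested on single libraries, being -0.04 without KO4, -0.77 without KO2 and -0.09 without WT8. The 3 with the smallest p were the BMP ligand gene Bmp7 at -0.74 (SE 0.35), Lmx1a, a LIM-homeodomain gene of the hem, at -0.98 (SE 0.49), and the ligand gene Wnt8b at -0.70 (SE 0.39), all with an edgeR adjusted p of 0.743. Bmp7 had 67 reads (KO2) and 41 (KO4), against 63 (WT6) and 99 (WT8). Wnt8b had 40 reads (KO2) and 19 (KO4), against 42 (WT6) and 45 (WT8), and Lmx1a had 9 and 6 reads in KO, against 15 and 12 in WT. KO4 was the lowest library for all 3, and for 8 of the 13 genes. Wnt3a, the hem ligand, had 18 reads (KO2) and 1 (KO4), against 15 (WT6) and 10 (WT8).

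Genes that receive and pass on the Reelin signal gave no call. Of 19 listed genes, all tested, 10 were above and 9 below 0, with a median log2 fold change of 0.01, and edgeR called 0, with 0 at an unadjusted p under 0.05. The receptor genes Vldlr and Lrp8 stood at 0.03 (interval -0.22 to 0.28) and 0.07 (-0.21 to 0.35), and Dab1, the adaptor that the receptors phosphorylate through Src family kinases, at 0.01 (-0.31 to 0.34). Dab1 had 108 CPM (KO2) and 116 (KO4), against 126 (WT6) and 95.6 (WT8), so that the KO libraries lay between the WT libraries. The kinase genes Fyn and Src stood at -0.03 and -0.14.

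The smallest unadjusted edgeR p of this pathway were those of Crkl (0.0682), Pafah1b1 (0.0852) and Crk (0.0954). Those of Adamts2 (0.0976) and Adamts3 (0.1005) were close behind. Whether place in the pathway matters was not tested. Crkl, an adaptor that binds phosphorylated Dab1, stood at 0.57 (SE 0.26), its relative Crk at 0.18 (SE 0.09) and Pafah1b1, which encodes LIS1, at 0.17 (SE 0.09), all with an edgeR adjusted p of 0.743. Crkl had 30.6 CPM (KO2) and 38.2 (KO4), against 29.8 (WT6) and 16.5 (WT8), so that KO2 and WT6 were nearly level and WT8 was low. Adamts3, whose protease cuts Reelin, stood at 0.70 (SE 0.37), and Adamts2, which encodes a related protease, at -0.61 (SE 0.32). These had the widest intervals of the list, on 28 to 90 and 26 to 51 reads per library.

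**Figure D4:**
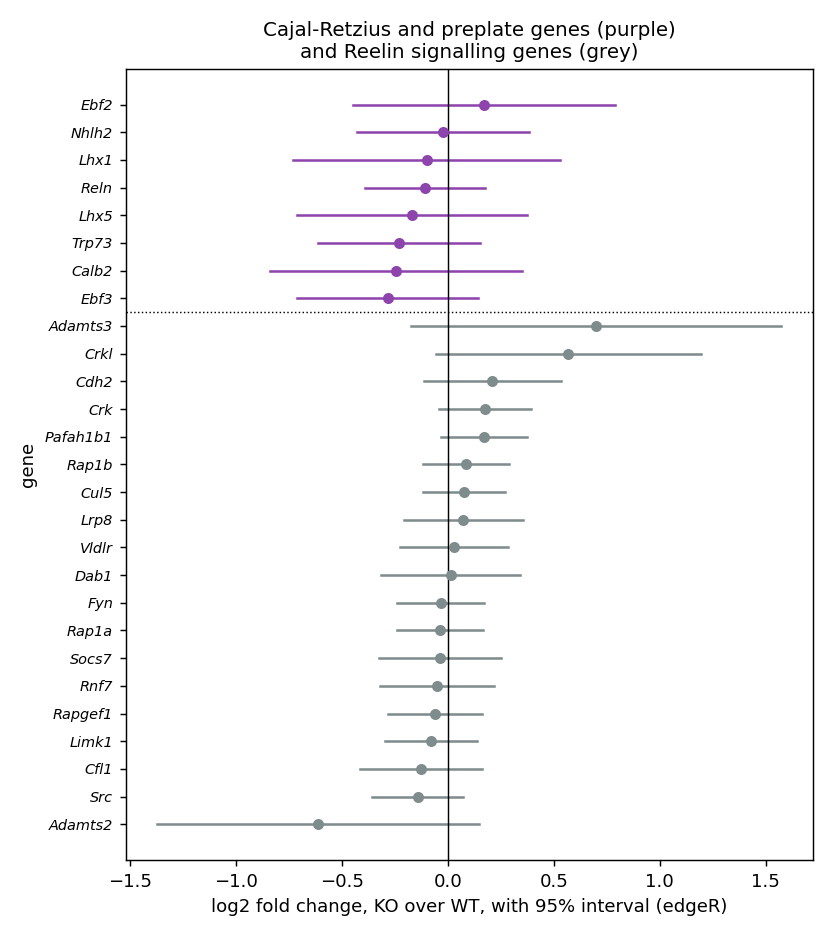
Log2 fold change of KO over WT with its 95% interval from edgeR (horizontal axis) for the 8 genes (purple, top) and 19 genes of Reelin signalling (grey, bottom). Each interval includes 0, the widest of the purple ones being that of Lhx1, from -0.73 to 0.53, and that of Ebf2, from -0.45 to 0.79.

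The subplate, the other product of the preplate, gave no call either. Of 8 tested subplate genes 5 were above and 3 below 0, with a median log2 fold change of 0.01. At an unadjusted edgeR p under 0.05 there were 2, Nxph4 and Tle4. The secreted neurexophilin gene Nxph4 had 887 reads in each KO library, against 989 in WT6 and 1030 in WT8, with KO over WT at -0.33 on the log2 scale (SE 0.09, unadjusted p = 0.00957, edgeR adjusted p = 0.743). Tle4, a corepressor gene of deep-layer and subplate neurons, stood at 0.25 (unadjusted p = 0.039) and Nr4a2, a nuclear receptor gene, at 0.23 (adjusted p of 0.743 and 0.759). Among 12 tested relatives of the 8 genes and their partners the median was -0.02, with 1, Ebf1, at an unadjusted edgeR p under 0.05. Ebf1 had 34.8 CPM (KO2) and 40.9 (KO4), against 21.2 (WT6) and 31.4 (WT8). Its log2 fold change was 0.53 (unadjusted p = 0.0296, edgeR adjusted p = 0.743). Trp53 stood at -0.22 and Lhx2 at -0.24. Ebf1 is also a gene of the striatal lineage, and WT6 was its lowest library. Calls made without WT8 are counted in the last section. That fit has WT6 as its only WT library, so no contrast between the listed genes and the 8 is drawn from it.

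Genes of neurons in general and of other cell types gave no call, and with all 4 libraries DESeq2 and limma-voom also called 0 listed genes. Of 11 genes of the telencephalon 5 were above and 6 below 0, with 0 called. The smallest p of all listed genes was that of Emx1, which encodes a homeobox factor of cortical progenitors and had 145.5 CPM (KO2) and 137 (KO4), against 194 (WT6) and 197 (WT8). Both KO libraries were below both WT libraries, and its log2 fold change was -0.47 (SE 0.08, unadjusted p = 0.000901, edgeR adjusted p = 0.743). Next were its relative Emx2 at -0.20 and Lhx2, given above. Genes of cortical and of ventral neurons ran opposite ways between the WT libraries, and apart from Neurod6 those named for this were chosen after their values were seen. Neurod6, a factor of cortical excitatory neurons, had 597 CPM (KO2) and 642 (KO4), against 839.5 (WT6) and 530.1 (WT8), and Eomes, a factor of their progenitors, had 139 (KO2) and 151 (KO4), against 186 (WT6) and 116 (WT8). Both were highest in WT6 and lowest in WT8, as Nhlh2 was, and Reln was also highest in WT6. Dlx1, a factor of ventral progenitors and interneurons, had 407.5 CPM (KO2) and 381 (KO4), against 269.6 (WT6) and 424 (WT8), and Dlx2, Dlx5 and Gad1 were likewise highest in WT8 and lowest in WT6, as Lhx5 was. The part of this balance in the values of the 8 genes was not tested.

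The 14 genes of postmitotic neurons had a median log2 fold change of 0.04, with 0 called, led by Rbfox3 at -0.23, Nefm at 0.23 and Map2 at 0.20. At an unadjusted edgeR p under 0.05 there was 1 of them, Rbfox3. Their summed level was 7824 CPM (KO2) and 7537 (KO4), against 7534 (WT6) and 8087 (WT8). Genes of the meninges, which lie next to Cajal-Retzius cells, summed to 43.1 CPM (KO2) and 47.9 (KO4), against 49.5 (WT6) and 45.96 (WT8). Most of each sum was Cxcl12, at 29.8 CPM (KO2) and 35.1 (KO4), against 38.1 (WT6) and 28.9 (WT8). Of the 7 meningeal genes tested, 4 were highest in WT8 and 1 in each other library. WT6 was the lowest library for 4 of them and each other library for 1. Erythroid genes summed to 579 CPM (KO2) and 578.7 (KO4), against 444 (WT6) and 999 (WT8). Endothelial genes lay between 137 and 154 CPM and microglial genes between 47.9 and 60.2 CPM over the 4 libraries. At an unadjusted edgeR p under 0.05 there was 1 of 8 endothelial and 0 of 9 microglial genes. Olfactory and eye genes were highest in WT8, at 8.52 CPM, against 2.78 CPM in KO2, 2.07 in KO4 and 1.86 in WT6, most of it from Six6. The part of these cells in the values of the 8 genes was not tested.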

How the data were processed

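Brains of E13.5 embryos were profiled by RNA sequencing, with 2 KO and 2 WT libraries grouped by the labelled genotype. The submitters' processing notes name HTSeq 0.6.0, TopHat2 2.0.12, Bowtie2 2.2.3 and the build mm9, without roles, but positions in the tables equal those of GENCODE M21 on GRCm38 for 91.2% of genes. The authors deposited read counts per gene, not normalized, and per the file headers a log2 fold change and an adjusted p-value for each pair of libraries. The sources used here do not name the test behind those p-values.

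The 2 tables were merged on their gene identifiers and fitted in R 4.3.3 using edgeR 4.0.16 (quasi-likelihood F-test on all genes, genotype as the only term, TMM, filterByExpr, Benjamini-Hochberg adjustment, threshold 0.05). The fit was also run on simulated counts. These held no difference of sex or deposited pair, unlike the real libraries, and no conclusion is drawn from them. The SE is the fold change divided by the root of F. Alternatives were other scalings and filters, DESeq2 1.42.0, limma-voom (limma 3.58.1), the deposited pair as a block and leaving out each library. Distances and single-library differences use log2 CPM with a prior count of 2. Exon lengths are of merged GENCODE M21 exons, and promoter windows come from RefSeq (GRCm38.p6), where 5 of the 8 genes matched.

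The genes and lists were chosen with earlier results of these data known. Genes could be named if they were among the 8, H2afy or H2afy2, the 3 of smallest p in a list, the 2 of highest mean in a list of other cells, in the Reelin list, or the 5 nearest to Reln. Not all of these are named: lists of diencephalon and midbrain, meninges, blood, endothelium and microglia are given by their sums. Of the meninges list Cxcl12 is also named. Outside that rule, after their values were seen, Eif2s3y, Eomes, Dlx1, Dlx2, Dlx5, Gad1, Zic1, Zic2, Tbr1, Six6, Pomc, Lhx8, Wnt3a, Lhx1os and Gm27199 were named.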

Additional observations from a re-analysis of the deposited data

How the results depend on the processing

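Across the 12 alternatives none of the 8 genes was called, with adjusted p between 0.315 and 1. Of 96 recomputed fold changes 9 changed sign, 8 of them on leaving out a library and 1 on scaling by library totals alone, where Nhlh2 stood at 0.0095. Without each library in turn the log2 fold change ranged from -0.25 to 0.054 for Reln, -0.31 to 0.14 for Lhx1, -0.46 to 0.19 for Lhx5, -0.53 to 0.11 for Calb2, -0.048 to 0.37 for Ebf2 and -0.23 to 0.22 for Nhlh2. Trp73 and Ebf3 stayed below 0, from -0.40 to -0.03 and from -0.51 to -0.08. Counts of listed genes called ranged from 0 to 14, the 14 without WT8, a fit with 1 WT library that is assumed to vary as the KO libraries do. With the deposited pair, and so the sex, as a block, 0 of the 8 genes and 0 listed genes were called. Over all genes edgeR called 1, against 104 without WT8, 0 without WT6, 2 without KO4, 2 with the block, 2 with library totals alone and 4 by DESeq2. Of 180 recomputed list medians 24 moved beyond the spread between replicates, 23 of them on leaving out a library. Leaving out a library moved the median over the 8 genes between -0.18 and -0.05, that of the hem and boundary genes between -0.77 and -0.04 and that of the other Cajal-Retzius genes between -0.26 and 0.10. The cause was not tested. The labels share no replicate number between genotypes. With 2 libraries per genotype and 47 to 84 reads for Lhx1 and Ebf2, small differences are not detectable.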
